A study of Mus musculus with 6 samples.

Results

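To describe the antioxidant genes that respond to the transcription factor NRF2 in kidney fibroblasts, 10 genes were read from a table of 34745 mouse genes. They were chosen by gene symbol: Hmox1, Nqo1, Txnrd1, Srxn1, Slc7a11, Osgin1, Prdx1, Txn1, Nfe2l2 and Keap1. The difference of Hmox1 between the groups was already known when this set was drawn up, so the values of all 10 genes are given as a description and carry no test. Each symbol was found on the table, and all 10 genes passed the filter on low counts, as did 13088 genes in total.

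The study sequenced RNA from primary renal fibroblasts of WT mice, the cells that lay down matrix between the kidney tubules. Digested kidney was the source of the cultures. The cells were left to attach for 6 h and then kept either alone (3 libraries) or for 24 h under a 0.4 μm porous insert holding Th17 cells, which are helper T cells that make interleukin-17 (3 libraries). Only the fibroblasts below the insert were harvested, so the insert separated them from the T cells. How long the lone cells were kept, and whether under an empty insert, was not given in the sources used here. The study's methods name Balb/c mice, without tying them to these cultures. Age and sex were not given in the sources used here, and neither was the origin of the 3 libraries of a group (wells, cultures or animals), so every SD, SE and p covers the spread between these libraries.

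The total count per library lay between 12050529 and 13209581, and the groups stood apart on the first principal component (76.8% of the variance of log2 CPM). CPM is the count scaled with TMM factors so that libraries share 1 total, and 3 counts equalled 0.223 to 0.254 CPM. The fibroblast label was checked against 12 marker genes, which were all detected and together held 38857 to 40597 CPM alone and 17208 to 19392 CPM with Th17 cells. Of these markers, 1 rose and 9 fell at an edgeR adjusted p below 0.05. In bulk RNA, fewer cells of a type and less RNA per cell cannot be told apart.

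NRF2, encoded by Nfe2l2, is a transcription factor that pairs with small MAF proteins on antioxidant response elements. KEAP1 binds NRF2 in the cytoplasm and passes it to a CUL3 ubiquitin ligase for degradation, and oxidants or electrophiles modify KEAP1 and let NRF2 escape. BACH1 competes for the same elements, is released by haem, and is best known as a repressor of Hmox1.

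The core of the antioxidant response element, TGACNNNGC, was searched on both strands of RefSeq promoter windows (GRCm38.p6, 250 bases before to 50 bases after a start). An element of AP-1, TGANTCA, and the E-box CACGTG were searched in the same way. A window was matched for 9 of the 10 genes and none for Hmox1. The core was found in windows of 4 of the 9 (Nfe2l2, Prdx1, Srxn1 and Txnrd1), against 14.0% of all 27025 genes with a window. AP-1 letters were found for 3 of the 9 (Osgin1, Prdx1 and Srxn1), against 8.97% of all genes. No E-box was found in these windows, against 8.09% of all genes. The windows of Nqo1, Slc7a11, Txn1 and Keap1 held none of the 3 motifs. The stretches below are shown because they hold the motifs of members that differ widely in their values, and that of Gclm, a glutathione gene described further on. All are plus-strand sequence with the motif in capitals. In Prdx1 the second capital run is an antioxidant core whose letters also contain the AP-1 element, whereas its first run and both runs of Srxn1 and that of Osgin1 are AP-1 letters alone. The runs of Gclm and Txnrd1 are antioxidant cores on the minus strand. The antioxidant core of Srxn1 lies at position 28 after its start, beyond the stretch shown. A match describes letters and is not a bound site.
Txnrd1, chr10:82859089-82859147: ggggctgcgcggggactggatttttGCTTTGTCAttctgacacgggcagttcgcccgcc
Prdx1, chr4:116685349-116685499: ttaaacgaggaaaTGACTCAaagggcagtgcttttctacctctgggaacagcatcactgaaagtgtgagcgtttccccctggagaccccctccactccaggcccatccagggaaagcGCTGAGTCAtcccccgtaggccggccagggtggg
Srxn1, chr2:152105397-152105510: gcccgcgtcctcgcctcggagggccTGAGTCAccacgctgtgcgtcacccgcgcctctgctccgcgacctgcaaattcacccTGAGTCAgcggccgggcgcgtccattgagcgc
Osgin1, chr8:119437025-119437081: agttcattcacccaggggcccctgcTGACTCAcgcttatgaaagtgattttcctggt
Gclm, chr3:122245398-122245456: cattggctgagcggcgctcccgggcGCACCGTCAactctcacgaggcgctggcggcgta

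The comparison asked which of these transcripts differ when Th17 cells share the medium. Hmox1 and Nqo1 were more than 2-fold higher in coculture, Txnrd1 and Nfe2l2 were higher by less than 2-fold, and the groups overlapped for the other 6 genes. By the rule of an edgeR adjusted p below 0.05 with a fold change above 2, 2 of the 10 genes were called higher and 0 lower, where 3.87% of all genes tested were called higher and 7.78% lower. With the adjusted p alone the count was 4 higher and 0 lower, where 17.1% and 20.0% of all genes tested passed, 37.1% in either direction. For 4 of the 10 genes the lowest cocultured library exceeded the highest lone one, and for none the reverse held. Among all genes tested 24.3% were higher in that way, and 50.4% had no overlap in either direction. Since the set was chosen with this contrast in view, these counts describe the members and nothing is read from them. The median log2 fold change was 0.16 over the 10 genes, 0.15 without Hmox1, and 0.00 over all genes tested.

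**Figure D1:**
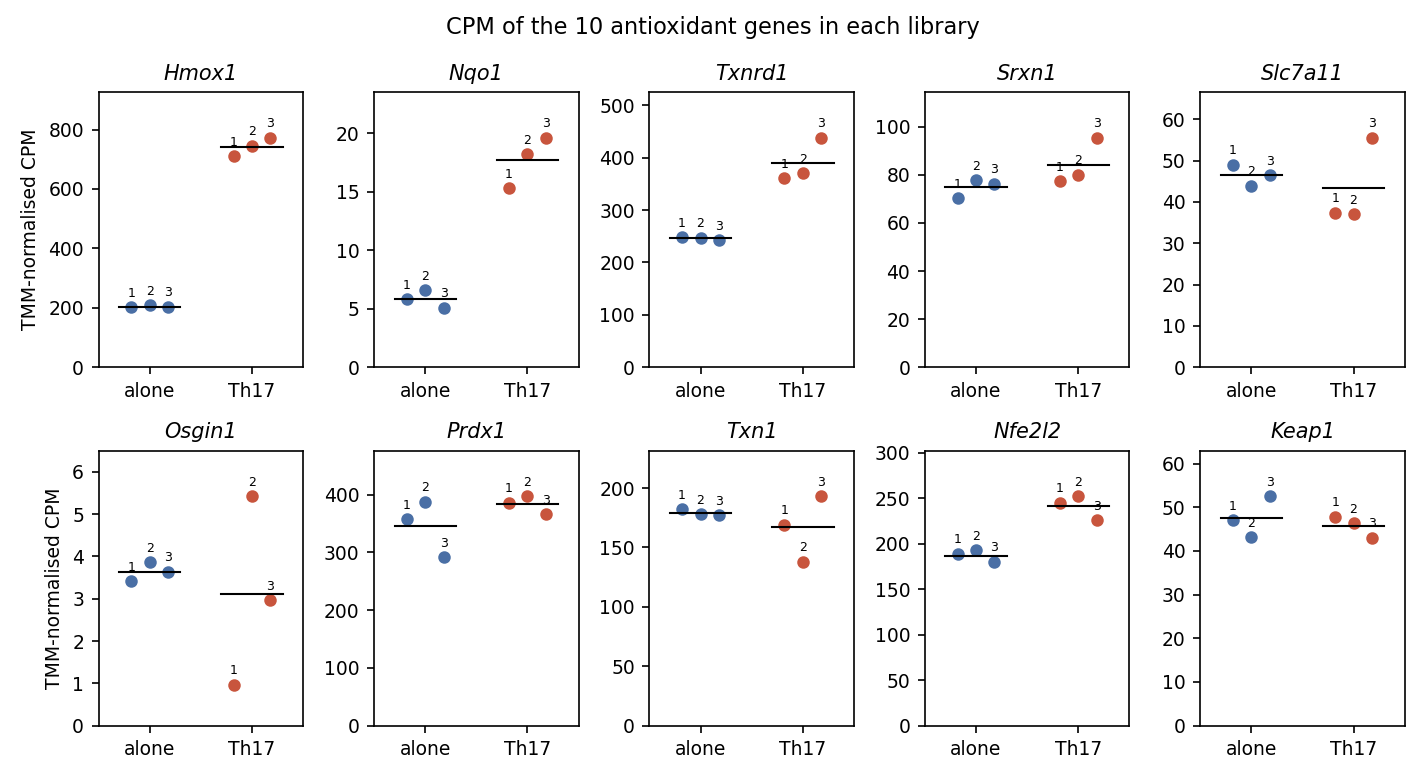
TMM-normalised CPM (y axis from 0, own scale per gene) of each of the 10 genes in the 3 libraries of fibroblasts alone (blue) and the 3 with Th17 cells (red), numbered by replicate, with a bar at the group mean. The groups stand apart for Hmox1, Nqo1, Txnrd1 and Nfe2l2, and the cocultured points of Osgin1 and Slc7a11 are widely spread.

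Among the regulators, Nfe2l2 (ENSMUSG00000015839, chr2:75675513-75704641, minus strand) had 189, 193 and 180 CPM in the lone libraries and 245, 252 and 226 CPM in the cocultured ones. Every cocultured library lay above every lone one, with means of 187 ± 6.85 and 241 ± 13.7 CPM (SD, n = 3 each). The fitted log2 fold change was 0.36 (SE 0.065, 95% interval 0.22 to 0.51), or 1.29-fold. Keap1 (ENSMUSG00000003308, chr9:21229730-21239332, minus strand), the sensor that holds NRF2 back, had 47.1, 43.2 and 52.5 CPM alone and 47.8, 46.3 and 43.0 CPM with Th17 cells. These ranges overlapped, and the interval of its log2 fold change (−0.06, SE 0.092) ran from −0.27 to 0.15. An exon of Keap1 overlaps Gm16754 on the opposite strand, which held only 16 to 27 counts per library.

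Hmox1 (ENSMUSG00000005413, chr8:75093591-75100596, plus strand) encodes haem oxygenase-1, the inducible enzyme that opens haem to biliverdin, carbon monoxide and iron. It had 2594, 2639 and 2399 counts alone and 9535, 9487 and 10135 counts with Th17 cells. In CPM these were 201, 209 and 203 against 710, 746 and 772. The libraries of each group lay close together and the groups were far apart, with means of 204 ± 3.78 and 742 ± 31.2 CPM (SD, n = 3 each). The log2 fold change was 1.86 (SE 0.057, 95% interval 1.73 to 1.99), or 3.63-fold, and 1.38% of all genes tested had a larger value. Hmox1 took 0.0200% of all counts alone and 0.0758% with Th17 cells. Within the summed counts of the 10 genes its share was 15.3% ± 0.533 alone and 35.1% ± 0.527 in coculture. The other 9 genes together held 0.111% of all counts alone and 0.140% in coculture.

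Nqo1 (ENSMUSG00000003849, chr8:107388225-107403206, minus strand) encodes a quinone reductase that is widely used as a readout of NRF2 activity. It was a low-abundance transcript, with 75, 83 and 60 counts alone and 206, 232 and 258 counts with Th17 cells. The CPM values were 5.83, 6.56 and 5.08 alone and 15.3, 18.2 and 19.6 in coculture. No cocultured library came near the lone range, and the log2 fold change was 1.60 (SE 0.151, 95% interval 1.26 to 1.94), or 3.04-fold. Its interval overlapped that of Hmox1, and 1.80% of all genes tested had a larger log2 fold change.

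In the thioredoxin system, the reductase was higher and its partners were not separated. Txnrd1 (ENSMUSG00000020250, chr10:82859206-82897724, plus strand), cytosolic thioredoxin reductase, had 248, 247 and 243 CPM alone and 361, 371 and 438 CPM with Th17 cells. The lone libraries differed by less than counting noise alone gives (coefficient of variation 0.957%, counting noise 1.81%), whereas the cocultured ones varied by 10.7%. The log2 fold change was 0.66 (SE 0.078, 95% interval 0.49 to 0.84), or 1.58-fold.

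Txn1 (ENSMUSG00000028367, chr4:57943373-57956411, minus strand), thioredoxin itself and the substrate of that reductase, had 182, 178 and 177 CPM alone and 169, 138 and 193 CPM in coculture. The cocultured values fell on both sides of the lone ones (log2 fold change −0.10, SE 0.107, 95% interval −0.35 to 0.14). Prdx1 (ENSMUSG00000028691, chr4:116685544-116700822, plus strand), a peroxiredoxin that reduces peroxides with electrons from thioredoxin, had 357, 388 and 292 CPM alone and 386, 397 and 366 CPM with Th17 cells. Lone replicate 3 was low, and the other lone libraries sat among or near the cocultured ones (log2 fold change 0.15, SE 0.097, 95% interval −0.07 to 0.37). Annotated transcripts of Prdx1 share stretches at 90.9% to 98.3% identity with 3 other genes that were not among the genes listed here, so its counts are uncertain. Srxn1 (ENSMUSG00000032802, chr2:152105516-152111376, plus strand), sulfiredoxin, which repairs overoxidised peroxiredoxins, had 70.3, 77.7 and 76.3 CPM alone and 77.4, 80.0 and 95.4 CPM in coculture. Only cocultured replicates 2 and 3 exceeded the lone range, and the interval of the log2 fold change of 0.17 (SE 0.092) ran from −0.04 to 0.38.

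Slc7a11 (ENSMUSG00000027737, chr3:49892526-50443614, minus strand) encodes the cystine transporter that supplies glutathione synthesis. Its CPM values were 49.0, 43.9 and 46.4 alone and 37.4, 37.0 and 55.5 with Th17 cells. Cocultured replicates 1 and 2 lay below all lone libraries and replicate 3 above them all. The log2 fold change was −0.10 (SE 0.151, 95% interval −0.44 to 0.24), and the cocultured libraries varied by 24.4%, where counting noise was 4.20%. The counting model of Slc7a11 is long and its annotated transcripts share stretches of at least 200 bases at 90% identity or more with 30 other genes, among them the abundant tubulin gene Tuba1b, so its counts are uncertain.

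Osgin1 (ENSMUSG00000074063, chr8:119434124-119446256, plus strand), an oxidative stress induced growth inhibitor, was the scarcest member. It had 44, 49 and 43 counts alone and 13, 69 and 39 counts with Th17 cells. The lone libraries were close together at 3.42, 3.87 and 3.64 CPM, and the cocultured ones spanned 0.967, 5.42 and 2.97 CPM, a 5.61-fold range. Counting noise was 15.7% for the cocultured libraries and their coefficient of variation 71.5%. The 95% interval of the log2 fold change (−0.23, SE 0.461) ran from −1.27 to 0.81, so a change of 2-fold in the downward direction lies inside it.

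**Figure D2:**
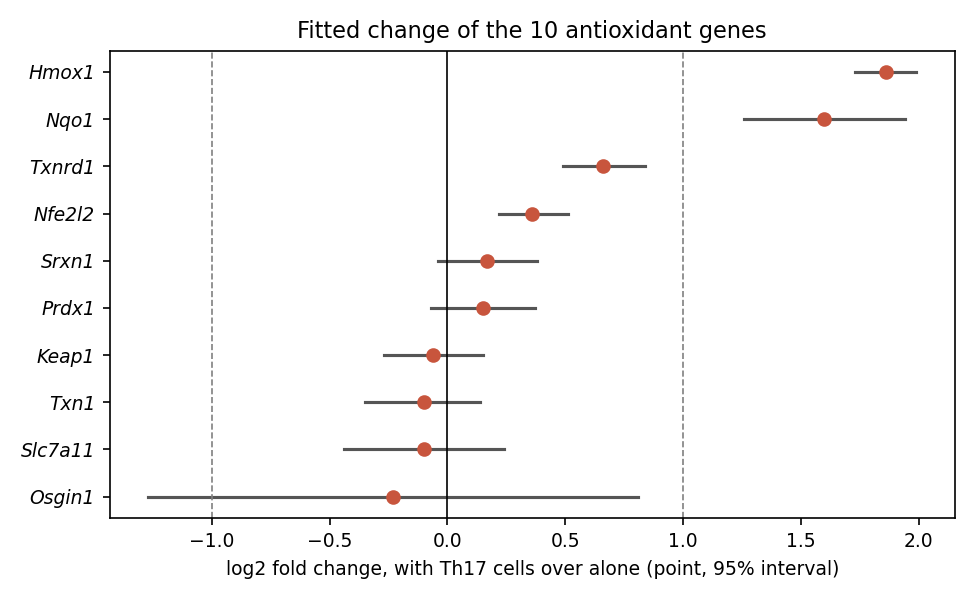
Fitted log2 fold change of the 10 genes, cocultured over alone (x axis), with points for the estimate and lines for the 95% interval of the edgeR fit; dashed lines mark a 2-fold change. The intervals of Hmox1 and Nqo1 lie above the upper dashed line, those of Txnrd1 and Nfe2l2 lie between 0 and that line, and the other 6 include 0.

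Within a group, the library with the highest value was not the same for all members, and whether members varied together was not tested. In coculture, replicate 3 held the highest CPM of 6 members (Hmox1, Nqo1, Txnrd1, Srxn1, Slc7a11 and Txn1) and replicate 2 that of Osgin1, Prdx1 and Nfe2l2. Over all genes tested, replicate 3 was highest for 34.2% and replicate 2 for 34.0%. For Keap1 the highest cocultured library was replicate 1. In lone fibroblasts, replicate 2 was highest for 6 members, and for 33.2% of all genes tested.

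Levels of different genes were compared as FPKM, which divides by gene length. In lone fibroblasts Txn1 was the most abundant member at 166 ± 2.22 FPKM (SD, n = 3). Prdx1 (82.6 ± 11.5 FPKM) and Hmox1 (72.1 ± 1.36 FPKM) came next and overlapped in range, and Txnrd1 followed at 70.4 ± 0.457 FPKM, just below the range of Hmox1. Then came Nfe2l2 (46.6 ± 1.60 FPKM), Srxn1 (20.1 ± 1.10), Keap1 (5.94 ± 0.602), Nqo1 (3.66 ± 0.461), Slc7a11 (2.89 ± 0.157) and Osgin1 (0.638 ± 0.0406). With Th17 cells Hmox1 stood first at 274 ± 12.3 FPKM, its lowest library (262) above the highest of Txn1 (189).

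The rest of the cocultured order was Txn1 (162 ± 27.5 FPKM), Txnrd1 (117 ± 13.1), Prdx1 (95.7 ± 3.28), Nfe2l2 (62.7 ± 3.20) and Srxn1 (23.7 ± 2.86), and no neighbours in it overlapped. Nqo1 (11.7 ± 1.47 FPKM) passed Keap1 (5.95 ± 0.295), ahead of Slc7a11 (2.82 ± 0.706) and Osgin1 (0.570 ± 0.405). The FPKM values imply gene lengths longer than the longest principal transcript for 7 members, for example 2769 against 1569 bases for Hmox1 and 5584 against 2005 bases for Osgin1. Per principal transcript, Hmox1 was again at rank 3 alone and rank 1 in coculture. On that scale Prdx1 came before Txn1 and Keap1 before Nqo1 in coculture, and Nfe2l2 came before Txnrd1 and Slc7a11 before Nqo1 in lone fibroblasts.

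**Figure D3:**
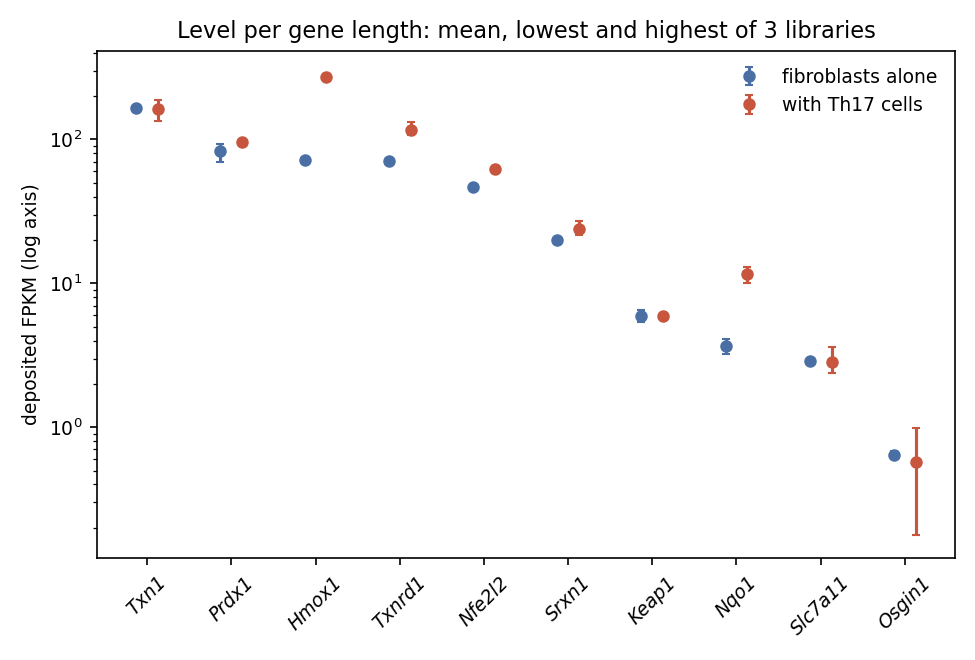
Deposited FPKM (log y axis) of each gene, ordered by its mean in lone fibroblasts; points are means and bars run from the lowest to the highest of 3 libraries, blue for fibroblasts alone and red with Th17 cells. Hmox1 goes from rank 3 at 72.1 to rank 1 at 274, and Nqo1 from below to above Keap1.

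Each of 6 ratios set a member against its relative or competitor in the same library. Hmox1 stood 8.48 ± 0.715 times above Hmox2, the constitutive haem oxygenase, in lone fibroblasts and 28.0 ± 5.04 times above it in coculture (ratio of FPKM, SD, n = 3 each). Hmox2 itself did not pass the test (35.2 and 39.4 CPM, log2 fold change 0.16, edgeR adjusted p = 0.42). Cytosolic Txnrd1 stood 69.3 ± 4.66 and 96.7 ± 6.74 times above mitochondrial Txnrd2, and the ranges of the groups did not meet for either pair.

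The ratio of Txn1 to mitochondrial Txn2 was 25.2 ± 3.48 alone and 20.3 ± 4.12 with Th17 cells, and that of Prdx1 to Prdx2 was 2.92 ± 0.333 and 2.77 ± 0.397. Both pairs overlapped between the groups. Against the repressor Bach1, Nfe2l2 stood at 6.80 ± 0.359 alone and 8.42 ± 1.21 in coculture, without overlap. Against its relative Nfe2l1 it stood at 4.38 ± 1.94 and 5.66 ± 1.56, where Nfe2l1 varied widely in lone fibroblasts (2039, 1503 and 3447 counts). Exons of Hmox2, Txnrd2 and Prdx2 overlap neighbouring genes, so the ratios with them are uncertain. The size of a ratio also rests on the gene lengths. Per principal transcript it was 26.6 and 37.1 for the reductases, 8.13 and 6.55 for the thioredoxins, 1.59 and 1.51 for the peroxiredoxins, and 2.15 and 2.78 for Nfe2l2 to Nfe2l1. Those of Hmox1 to Hmox2 (6.45 and 21.3) and Nfe2l2 to Bach1 (9.05 and 11.2) moved less.

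Over the 6 libraries, the genes most like Hmox1 were sought among 9897 genes outside the lists by the root mean square difference of log2 CPM from the lone mean. The closest were Sema7a (0.059), Il11 (0.063), Serpina3i (0.085), Ptpn22 (0.095) and Mmp10 (0.10). Il11, a cytokine of the interleukin-6 family, had 63.4 ± 1.32 CPM alone and 231 ± 25.1 with Th17 cells. Mmp10, the matrix protease stromelysin-2, had 87.9 ± 4.91 and 293 ± 14.3 CPM. Sema7a, a membrane-anchored semaphorin, had 10.2 ± 0.184 and 37.7 ± 4.0 CPM. Among the members, only Nqo1 came near (0.229), and the other 8 lay between 0.852 for Txnrd1 and 1.787 for Osgin1. The likeness was chosen on these values and is a description.

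A wider list of 100 pathway genes outside the 10 was grouped by function into 6 arms, and 90 of them passed the filter on low counts. At an edgeR adjusted p below 0.05, 38 rose (42.2%), 12 fell (13.3%) and 40 did not pass, where 17.1% of all genes tested rose and 20.0% fell. Past 2-fold as well, 7 rose (7.78%) and 5 fell (5.56%), where 3.87% and 7.78% of all genes did. The median log2 fold change of the 90 was 0.19. Most of those that passed did so by less than 2-fold. The 17.1% and 20.0% of all genes also stand beside the counts of each arm below. The list was made with earlier results of these data known, so its counts are not independent evidence of a direction.

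**Figure D4:**
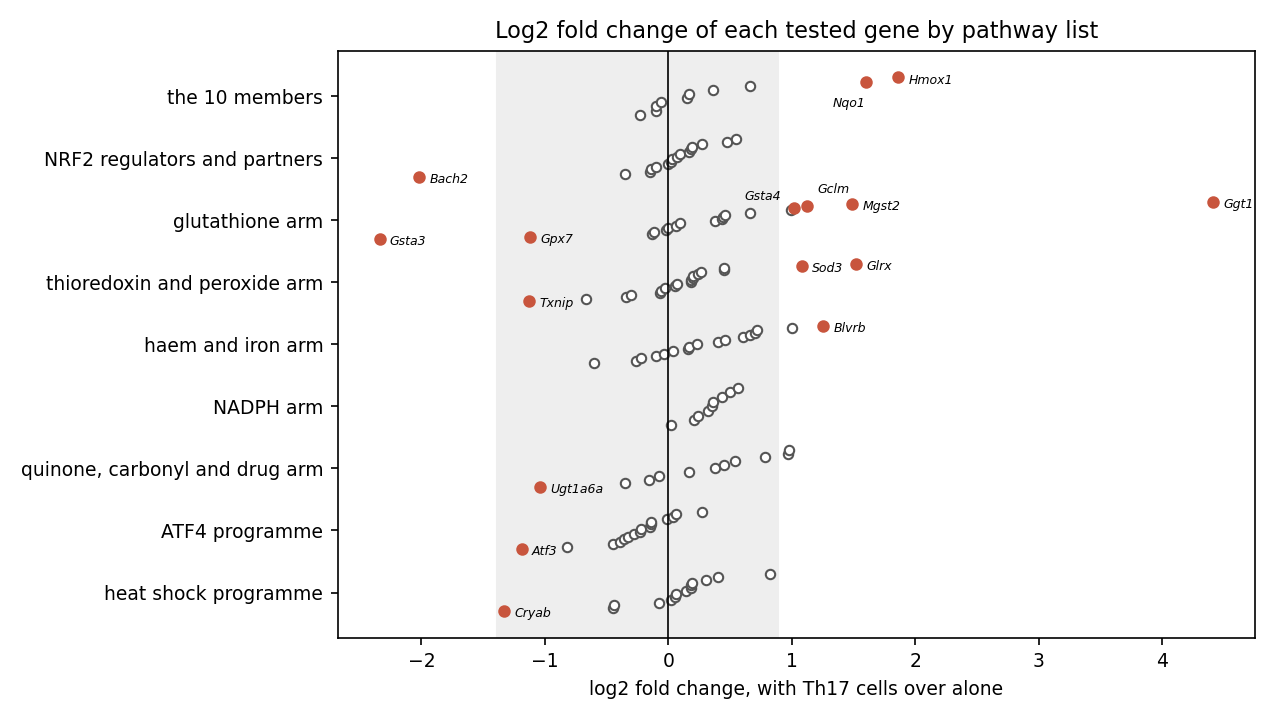
Log2 fold change (x axis, cocultured over alone) of every tested gene in the 10 members, the 6 arms and the ATF4 and heat shock lists (rows), with filled red points for genes past an edgeR adjusted p of 0.05 and 2-fold and open points for the others; the grey band spans the 5th to 95th percentile of all genes tested (−1.39 to 0.89). All points of the NADPH arm lie right of 0 and inside the band, and the far point of Ggt1 rests on 3 counts in lone fibroblasts.

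Of 16 regulators and partners of NRF2 tested, 2 rose, 2 fell and 12 did not pass. Sqstm1, the autophagy receptor p62 that draws KEAP1 away from NRF2 and is itself an NRF2 target, rose from 897 to 1311 CPM (log2 fold change 0.55, SE 0.071, edgeR adjusted p = 0.000315). The small MAF genes, whose products pair with NRF2, split. Maff rose (log2 fold change 0.47, edgeR adjusted p = 0.00157), Mafk fell (−0.35, adjusted p = 0.00421) and Mafg had 0.18 (adjusted p = 0.0664). Bach1 did not pass (log2 fold change 0.07, SE 0.089, edgeR adjusted p = 0.585), nor did Cul3, the ligase scaffold (0.19, adjusted p = 0.114). Bach2 fell (log2 fold change −2.02, SE 0.486, edgeR adjusted p = 0.0100), from 29, 102 and 108 counts alone to 16, 25 and 21 counts. Reads from Mafg, Mafk and Sqstm1 may be shared with overlapping neighbours.

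In the glutathione arm, 9 of 18 tested genes rose, 2 fell and 7 did not pass, with a median log2 fold change of 0.41. Both subunits of glutamate-cysteine ligase, the rate-limiting enzyme of glutathione synthesis, rose, the modifier Gclm more than the catalytic Gclc. Gclm had 268, 282 and 241 counts alone and 569, 581 and 652 counts with Th17 cells, with no overlap (21.2 ± 0.999 and 45.9 ± 3.66 CPM, log2 fold change 1.12, SE 0.092, edgeR adjusted p = 1.7e-05). Gclc went from 40.0 to 53.9 CPM (log2 fold change 0.43, SE 0.084, edgeR adjusted p = 0.00345). The counts of Gclm are uncertain where Gm6061 lies on the same strand and Gm17494 on the opposite one.

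Glutathione reductase, Gsr, did not pass (log2 fold change −0.12, SE 0.109, edgeR adjusted p = 0.423). Slc3a2, the heavy chain that partners Slc7a11 at the membrane, had −0.13 (SE 0.093, adjusted p = 0.305), so it did not pass the test. Ggt1, which cleaves extracellular glutathione, was nearly absent alone (3, 0 and 0 counts) and had 26, 23 and 26 counts in coculture, a ratio of 23.8 with an exact counting interval of 7.82 to 118 (edgeR adjusted p = 0.000689). All lone counts came from replicate 1, and without that library Ggt1 was at least 7.51-fold higher in coculture, against a floor of 3 counts per library. Its log2 fold change lay between 3.88 and 4.45 when any other library was left out, and was 0.33 by limma on log2(FPKM + 1), where the added 1 shrinks the fold of scarce genes.

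Of the glutathione transferases, Gsta3 fell (log2 fold change −2.34, SE 0.469, edgeR adjusted p = 0.00393), while Mgst2 (1.49, SE 0.435, adjusted p = 0.0244) and Gsta4 (1.02) rose. All 3 had under 40 counts in every library, and Gsta4 is named here after its value was seen. Of more abundant transferases, Gstm1 rose from 26.5 to 52.6 CPM (log2 fold change 0.99, edgeR adjusted p = 6.73e-05). Gstm2 rose from 92.7 to 121 CPM (0.38, adjusted p = 0.00314). Gstp1 and Mgst1 did not pass (edgeR adjusted p = 0.921 and 0.979). The call of Mgst2 was lost by DESeq2 (adjusted p = 0.0593) and without any 1 of 4 libraries. Gpx7, a peroxidase of the endoplasmic reticulum, fell (log2 fold change −1.12, SE 0.094, edgeR adjusted p = 1.8e-05).

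In the thioredoxin and peroxide arm, 6 of 19 genes rose, 4 fell and 9 did not pass. Glrx, glutaredoxin, which reduces glutathionylated proteins, rose from 65.6 ± 3.57 to 188 ± 19.0 CPM (log2 fold change 1.52, SE 0.087, edgeR adjusted p = 1.47e-06). Txnip, which binds and inhibits thioredoxin, fell from 311 to 142 CPM (log2 fold change −1.13, SE 0.106, edgeR adjusted p = 3.8e-05), although an antisense gene overlaps it. Extracellular superoxide dismutase, Sod3, rose from 2.73 ± 0.315 to 5.78 ± 0.110 CPM (log2 fold change 1.08, SE 0.176, edgeR adjusted p = 0.00126). The relatives Txn2, Txnrd2 and Prdx2 had log2 fold changes of 0.20, 0.18 and 0.24 and did not pass (edgeR adjusted p = 0.212, 0.34 and 0.0795).

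Around Hmox1 in the haem and iron arm, 7 of 17 genes rose, 2 fell and 8 did not pass. Ferritin, which stores the iron that haem breakdown frees, rose in both chains, Fth1 and Ftl1, although the groups overlapped for Ftl1. The log2 fold change of Fth1 was 0.46 (SE 0.063, edgeR adjusted p = 0.000451) and that of Ftl1 0.72 (SE 0.211, adjusted p = 0.0248). Ftl1 varied more than Fth1 in both groups (1237, 916 and 1616 CPM in coculture), and lone replicate 1 lay above cocultured replicate 2. The Ftl1 gene also overlaps other genes. Of the biliverdin reductases that act on the product of haem oxygenase, Blvrb rose from 9.10 ± 0.900 to 21.7 ± 5.66 CPM (log2 fold change 1.25, SE 0.187, edgeR adjusted p = 0.000762). Blvra had −0.22 (SE 0.125, edgeR adjusted p = 0.209).

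NADPH, which Nqo1, Txnrd1 and haem oxygenase draw on directly or through a partner enzyme, is supplied by the pentose phosphate pathway and malic enzyme. In that arm 8 of 9 genes rose, none past 2-fold, and the values lay between 0.02 and 0.56. G6pdx had 0.21 (SE 0.064, edgeR adjusted p = 0.0279) and Me1 0.35 (SE 0.061, adjusted p = 0.00189). In the quinone, carbonyl and drug arm, to which Nqo1 belongs by function, 6 of 11 tested genes rose, 2 fell and 3 did not pass, with a median of 0.38. The single gene past 2-fold was Ugt1a6a, which fell (log2 fold change −1.04, SE 0.200, edgeR adjusted p = 0.00315). Ugt1a6a shares exons with other Ugt1a genes, and its fold was under 2 without lone replicate 2 or cocultured replicate 3 (−0.88 each).

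Hmox1 and Slc7a11 are also controlled by other stress programmes, and these were counted beside the NRF2 arms. Of 16 genes of the ATF4 programme, the response to amino acid shortage and unfolded protein, 1 rose, 7 fell and 8 did not pass, with a median log2 fold change of −0.22. The shares that rose and fell were 6.25% and 43.8%, where 17.1% of all genes tested rose and 20.0% fell. Atf3, a stress-induced factor, fell (log2 fold change −1.19, SE 0.238, edgeR adjusted p = 0.00386), by less than 2-fold without cocultured replicate 1 (−0.92). Among 14 heat shock genes, 3 rose (21.4%), 3 fell (21.4%) and 8 did not pass (median 0.10), near the shares of all genes. Cryab, a small heat shock protein, fell from 350 to 139 CPM (log2 fold change −1.33, SE 0.057, edgeR adjusted p = 2.67e-07), though it overlaps Hspb2.

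Of 16 genes for enzymes that make oxidants, 10 were tested, of which 2 rose (20.0%), 5 fell (50.0%) and 3 did not pass. Over all genes tested, 17.1% rose and 20.0% fell. Xdh rose from 428 to 691 CPM (log2 fold change 0.69, SE 0.059, edgeR adjusted p = 2.08e-05). Aox1 rose from 5.71 to 9.91 CPM (log2 fold change 0.79, SE 0.135, edgeR adjusted p = 0.00161). Nos2, inducible nitric oxide synthase, fell from 502 to 142 CPM (log2 fold change −1.82, SE 0.087, edgeR adjusted p = 4.94e-07). Cybb, the phagocyte NADPH oxidase subunit, had 78, 108 and 94 counts alone and 2, 1 and 0 counts with Th17 cells, a ratio of 98.2 with an exact counting interval of 33.3 to 479 (edgeR adjusted p = 4.2e-06). Duox1 also fell, from low counts (log2 fold change −2.42, edgeR adjusted p = 0.00234; −3.22 without cocultured replicate 3).

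Markers of other cells were read because macrophages and erythroid cells express or feed haem oxygenase. The 18 macrophage markers summed to 68.5 to 72.6 CPM alone and 20.3 to 21.4 CPM with Th17 cells. Of the 8 tested, 7 fell (87.5%, against 20.0% of all genes tested) and 1, Cd14, did not pass (11.2 CPM in both groups). Cd68 fell from 8.05 to 4.23 CPM and Lyz2 from 27.7 to 3.33 CPM, so both were still found in coculture. Adgre1, Marco and Ptprc had 0 counts in each cocultured library, and Cd163, Vsig4 and Timd4 had 0 in all 6.

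The 16 T cell markers summed to 7.38 to 9.33 CPM alone and 5.03 to 6.03 CPM in coculture, and Cd3d, Cd2, Cd5, Il17a, Il17f and Ccr6 were at 0 in all libraries. Trac (20 to 41 counts) and Lck (23 to 68 counts) were found in every library of both groups. The 8 erythroid markers summed to 0.949 to 1.18 CPM alone and 0.393 to 1.27 CPM in coculture, and 5 of them were at 0 throughout. Epithelial markers (11 genes) summed to 22.6 to 24.9 CPM alone and 5.63 to 6.68 CPM with Th17 cells, and endothelial markers (9 genes) to 9.96 to 10.6 and 5.18 to 6.05 CPM. The part of these markers in the values of the antioxidant genes was not tested.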

How the data were processed

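Sample titles gave the groups, and sample descriptions gave the table columns. Per the submitters' processing notes and the study's methods, the authors cleaned reads with Seqtk and aligned them to mm10 with HISAT2 2.0.4. They deposited raw fragment counts per gene from StringTie 1.3.3b and, beside them, FPKM values. In all 8910 genes with enough counts, count and deposited FPKM implied 1 gene length in all libraries. Use of strand was not given in the sources used here. Of the gene identifiers, 34344 occurred in GENCODE M21. There were 59 symbols with more than 1 row, and each row was filtered and tested under its own gene identifier. For a symbol in the gene lists, the row with the highest counts was read.

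The count test was that of edgeR 4.0.16 in R 4.3.3 (filterByExpr with a minimum count of 10, TMM, glmQLFit and glmQLFTest) and Benjamini-Hochberg adjustment over all 13088 genes tested. A gene was called at an adjusted p below 0.05 when it also differed by more than 2-fold. The biological coefficient of variation was 11.6%. Standard errors are the log2 fold change divided by the square root of F, and 95% intervals use the t distribution of the fit. Counting noise is the Poisson value. The exact counting intervals of Ggt1 and Cybb cover counting error only, and PCR copies of a molecule were not told apart. Similar transcripts were found by blastn. The scripts were tested on simulated data.

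The members and all gene lists were chosen with earlier results of these data known. Outside the members, the text names genes called in each list up to the 4 largest log2 fold changes, a set of relatives, regulators and enzymes of the pathway, and the 5 genes most like Hmox1. Markers were named where they were at 0, and Cd14, Cd68, Lyz2, Trac and Lck after their values were seen. So were Gsta4, Gstm1, Gstm2, Gstp1, Mgst1, Xdh and Aox1. A gene that the rule would name is not reported here.

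The alternatives were DESeq2 1.42.0, other scaling factors, other filters, a replicate block, the omission of each library in turn, limma 3.58.1 on log2(FPKM + 1) and log2(FPKM + 0.1), and no limit on fold change. Levels per principal transcript were chosen after seeing the data. Python 3.11.15, pandas 2.3.3 and matplotlib 3.10.9 were used for tables and figures.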

Additional observations from a re-analysis of the deposited data

How the results depend on the processing

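Leaving out each library gave a log2 fold change of 1.83 to 1.89 for Hmox1, 1.51 to 1.70 for Nqo1, 0.57 to 0.72 for Txnrd1, 0.33 to 0.41 for Nfe2l2, −0.89 (without cocultured replicate 2) to 0.20 (without cocultured replicate 1) for Osgin1 and −0.32 to 0.00 for Slc7a11. The value of Hmox1 was 1.92 with library size only, 1.91 by limma on log2(FPKM + 1) and 1.92 on log2(FPKM + 0.1), against 1.86, and its sign held under all 15 alternatives. The members called were 2 higher and 0 lower under every alternative except without a fold limit, which gave 4 higher. Of the other pathway genes, 11 were called higher with library size only, 3 by limma on log2(FPKM + 1), 11 on log2(FPKM + 0.1) and 38 without a fold limit, against 7, and 2 were called lower by limma on log2(FPKM + 1) and 12 without a fold limit, against 5. Over all genes, limma on log2(FPKM + 1) called 224 higher and 402 lower, and no fold limit 2244 and 2612, against 506 and 1018. Leaving out libraries gave 498 to 522 higher and 978 to 1029 lower. Without 1 library, Bach1 ranged from −0.00 (without cocultured replicate 3) to 0.15 and Nfe2l1 from −0.39 to 0.31 (without lone replicate 3), a change of sign in genes that were not called, and the cause was not tested. Libraries with the same replicate number shared no visible deviation (correlations of deviations 0.016, −0.026 and −0.004). This cannot settle whether they share an origin, which was not given. With the replicate block 490 genes were called higher and 1005 lower and Hmox1 stayed at 1.86. Osgin1 had only 13 to 69 counts per library, but its cocultured libraries spread beyond counting noise. Limma on log2(FPKM + 1) also ended the calls of Bach2, Duox1, Gclm, Ggt1, Gsta3, Sod3 and Atf3 with their direction kept, mostly by bringing the fold under 2 (Gclm 0.93, Sod3 0.59, Ggt1 0.33). Mgst2 lost its call under 6 of 14 alternatives, without lone replicates 1 or 2 or cocultured replicates 2 or 3 among them (adjusted p 0.0584 to 0.0782). Ugt1a6a lost it under 5 of 15, with library size only among them, and Sod3 had 0.99 without lone replicate 2. Without cocultured replicate 1, the log2 fold change of Gsta3 was −2.97 and that of Cybb −7.27.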
